A study of Mus musculus with 12 samples.

Results

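The genes described here are the 8 heavy-chain constant region genes of the mouse immunoglobulin locus, Ighm, Ighd, Ighg3, Ighg1, Ighg2b, Ighg2c, Ighe and Igha, together with Jchain, which codes for the joining chain of polymeric antibody. They were taken by symbol from the deposited gene lists, and each symbol matched a single row, so they make up 9 of 32285 listed genes. The other 388 immunoglobulin genes, most of them variable segments, were not described gene by gene. Lymph node cells of C57BL/6 mice aged 7 to 10 weeks were read as 12 droplet libraries, 1 for every combination of treatment, genotype label and bead fraction. Genotypes are labelled ATG12 fl/fl x CDH5 CreER negative and ATG12 fl/fl x CDH5 CreER positive, shortened here to Cre-negative and Cre-positive. Both kinds of mice carried the floxed Atg12 alleles, and tamoxifen was given 5 times to all of them. Cdh5 drives the Cre in endothelial cells, so the labels do not place the deletion in B cells. Treatments were vehicle control (acetone and olive oil without oxazolone), oxazolone day 3 and oxazolone day 7, with 50 ul of 4% oxazolone, a skin sensitiser, applied to the abdomen. The CD45 fraction held the cells that bound CD45 beads, and the CD31 fraction held those that did not, which the labels call endothelial cells. B and plasma cells were found in both fractions, and neither the number of mice per library nor a link between the fractions of a group is given in the labels. Every group is therefore a single library, and the intervals printed below are at 95% and cover counting error only. Both fractions of a group may come from the same mice, so agreement between them is not independent support.

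Each B cell makes antibody with a single heavy-chain constant region at a time, and this region sets the class. Naive B cells express Ighm and Ighd together from a shared transcript by alternative processing, and class switch recombination then replaces Ighm with a constant region that lies further along the locus. Germinal centres are the follicle sites where activated B cells divide and mutate their antibody genes, and where many switched cells are found, while plasma cells secrete antibody in bulk. The joining chain links IgM into pentamers and IgA into dimers through a cysteine near the end of the secreted heavy chain.

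All 8 heavy-chain genes lie on the minus strand of chromosome 12 (build GRCm38). In the order of the locus they are Ighm at chr12:113418558-113422730, Ighd at chr12:113406604-113416324, Ighg3 at chr12:113356224-113361232, Ighg1 at chr12:113325240-113330523, Ighg2b at chr12:113302965-113307933, Ighg2c at chr12:113285325-113288932, Ighe at chr12:113269260-113273248 and Igha at chr12:113254830-113260236. Jchain lies on the minus strand of chromosome 5 at chr5:88519809-88527891. The last 60 coding bases of the shorter annotated transcript of Ighm, Ighg1 and Igha are shown because Ighm and Igha carry there the feature that ties them to Jchain, and Ighg1 is shown beside them as a gene without it. They are exonic and read 5′ to 3′ from GENCODE release M21. Capitals mark the penultimate codon where it codes for cysteine.
Ighm (chr12:113420867-113420926): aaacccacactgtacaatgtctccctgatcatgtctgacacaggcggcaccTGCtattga
Igha (chr12:113258768-113258827): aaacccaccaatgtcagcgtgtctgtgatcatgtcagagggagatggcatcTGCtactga
Ighg1 (chr12:113328976-113329035): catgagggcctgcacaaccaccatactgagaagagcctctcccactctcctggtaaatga
A cysteine codon stood in the penultimate position in Ighm and Igha and in none of the other 6 heavy-chain genes. The 4 IgG genes are close relatives, with 74.2% to 85.6% identity over their coding bases in pairs and the highest value for Ighg2b and Ighg2c. Reads of such genes could be assigned to the wrong member. In plasma cells the class holding most heavy-chain UMIs held 95.7% to 99.8% of them in the pooled cells of each class. In the 58 cells of class IgG2c, Ighg2b took 0.243% of the heavy-chain UMIs.

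UMIs are molecular tags, so a UMI count is a count of captured transcripts, and levels below are given as CPM, the UMIs of a gene scaled to all UMIs of the same cells. These libraries read transcript ends, so the counts do not depend on gene length, but they do not tell membrane from secreted forms, nor germline transcripts from those of switched cells. Library totals ran from 36724887 to 76186801 UMIs, with 5698 to 10553 cells kept per library and 847 to 3453 B and plasma cells. No pair of libraries shared more than 31 cell barcodes or more than 0.38% of the smaller set. In blood endothelial-like cells, Atg12, the targeted gene, stood at 46.0 to 52.7 CPM in the 3 libraries labelled Cre-negative and at 60.3 to 74.0 CPM in the 3 labelled Cre-positive, a measure that need not include the deleted exons. B cells with a UMI from a Y-linked gene and B cells with a UMI of Xist occurred together in 10 of 12 libraries. The vehicle libraries labelled Cre-positive differed, with Y-linked UMIs in 67.4% (CD45) and 64.7% (CD31) of B cells and Xist in 0% and 0.115%. In both fractions, the vehicle library labelled Cre-negative and the day 7 library labelled Cre-positive stood apart from the other 4 in Ighg1. No value used here checks the treatment or genotype labels of these libraries, so each value given by label rests on the labels alone.

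Ighm and Ighd, the genes of unswitched B cells, were expressed within a narrow range over all libraries. In B cells outside germinal centres, Ighm in the CD45 libraries stood at 1393 CPM (vehicle, Cre-negative), 1522 CPM (vehicle, Cre-positive), 1270 and 1289 CPM (day 3, same order), and 1685 and 1427 CPM (day 7). Ighd stood at 883, 881, 864, 757, 1046 and 888 CPM in those libraries. The CD31 libraries gave 1223 to 1740 CPM for Ighm and 766 to 1103 CPM for Ighd. Both genes were highest in the day 7 libraries labelled Cre-negative of either fraction. The ratio of Ighm to Ighd UMIs in these cells was 1.47 to 1.73 over the 12 libraries.

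The ratio was higher in every other compartment. Germinal centre B-like cells had 5.57 to 32.0 Ighm UMIs for each Ighd UMI, as Ighd stood at 31.8 to 198 CPM there. T cell-like cells, which make no antibody, had 143 to 198 CPM of Ighm but 3.67 to 8.56 CPM of Ighd, a ratio of 20.8 to 45.0. Free RNA, taken as the sum of barcodes with at most 100 UMIs, had a ratio of 2.35 to 5.45. The T cell ratio thus lay outside the range of free RNA in every library. Blood endothelial-like cells in the CD31 libraries had 2.99 to 9.97 CPM of Ighm.

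Ighg1, the constant region of the IgG1 class, separated the libraries most widely. Over B and plasma cells of the CD45 libraries it stood at 7178 CPM (vehicle, Cre-negative) and 1.13 CPM (vehicle, Cre-positive), at 5.30 and 7.05 CPM at day 3, and at 5.05 and 8905 CPM at day 7, in the same order of labels. In the CD31 libraries it stood at 8710 and 0 CPM for vehicle, 4.56 and 9.16 CPM at day 3, and 4.50 and 7841 CPM at day 7. The 4 high libraries ranged from 7178 to 8905 CPM and the other 8 from 0 to 9.16 CPM. With suspected doublets kept, Ighg1 stood at 6782 to 8622 CPM in the 4 high libraries and at 0 to 543 CPM in the other 8. The library at 0 held no Ighg1 UMI in its B and plasma cells, which allows up to 0.886 CPM from a floor of 3 counts. Between vehicle and day 7, Ighg1 was 1421-fold lower in the CD45 libraries labelled Cre-negative and 7854-fold higher in those labelled Cre-positive. The corresponding CD31 values were 1935-fold lower and at least 8850-fold higher, the last against the floor of 3 counts. The 7854-fold value rests on 9 Ighg1 UMIs in the vehicle library, 88.9% of them from a single cell. In the CD31 libraries labelled Cre-negative, the log2 ratio was -10.92 with doublets removed and -9.91 with doublets kept. The plot of member levels by library shows this split beside the narrower ranges of Ighm (1257 to 2245 CPM) and Ighd (512 to 1073 CPM) in the same sums.

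**Figure D1:**
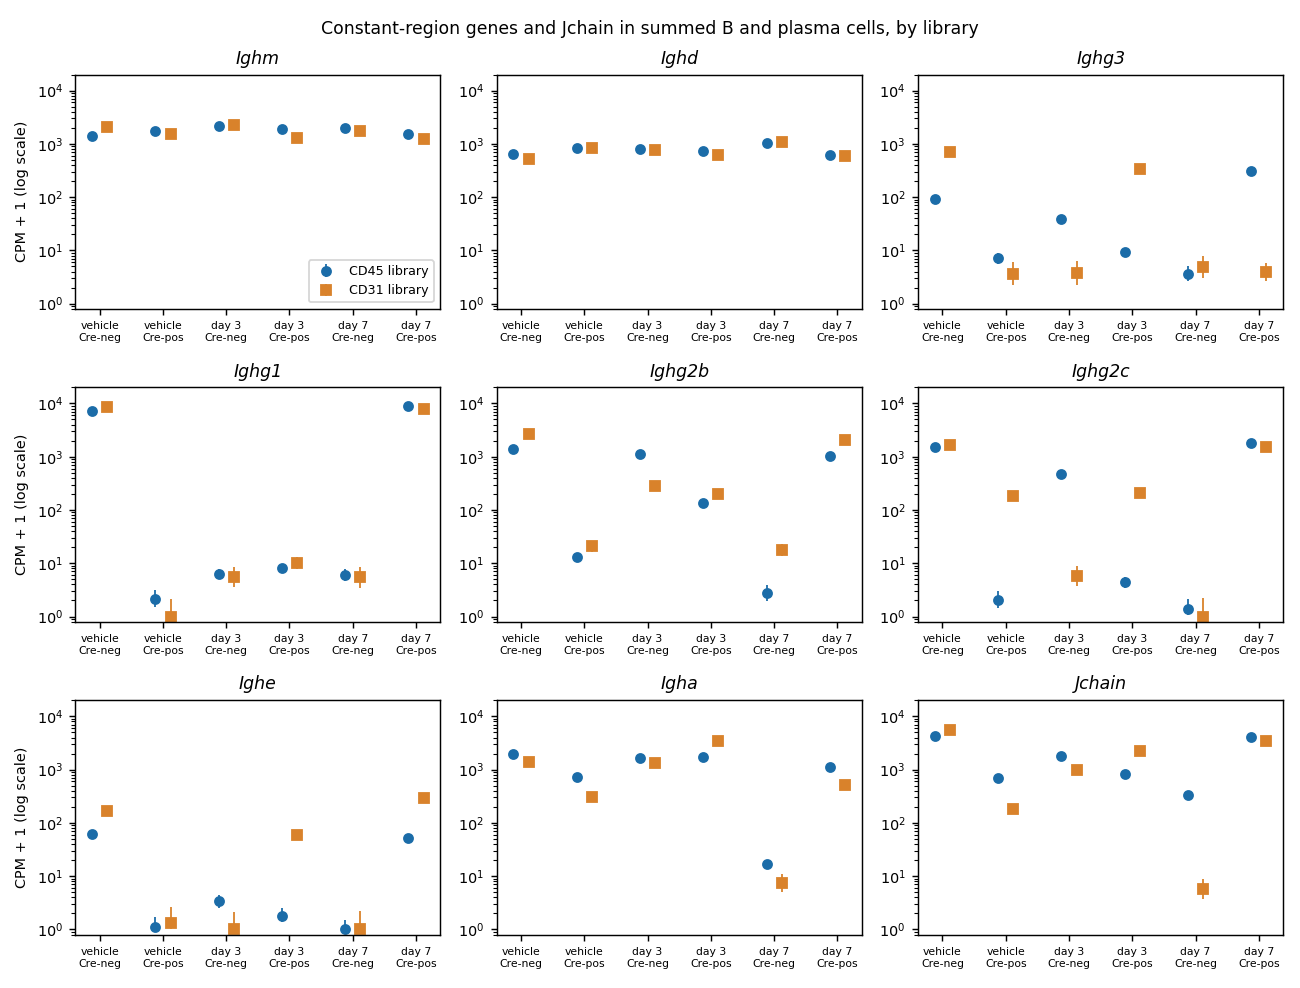
Levels of the 9 genes in summed B and plasma cells, as CPM + 1 on a log axis, with 1 point per library (circles CD45, squares CD31) and exact Poisson intervals. Ighg1 is at 7178 to 8905 CPM in the vehicle Cre-negative and day 7 Cre-positive libraries and at 0 to 9.16 CPM in the other 8. Over all 12, Ighm runs from 1257 to 2245 CPM and Ighd from 512 to 1073 CPM.

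Ighg2c and Ighg2b, the constant regions of the IgG2c and IgG2b classes, were also high in those 4 libraries, but the other libraries overlapped with them for Ighg2b. Ighg2c in the CD45 libraries stood at 1552 and 1.01 CPM (vehicle, Cre-negative and Cre-positive), 475 and 3.36 CPM (day 3), and 0.399 and 1783 CPM (day 7). Ighg2b stood at 1405 and 12.2 CPM for vehicle, 1132 and 136 CPM at day 3, and 1.73 and 1046 CPM at day 7. The day 3 library labelled Cre-negative therefore had Ighg2b above the level of the day 7 library labelled Cre-positive. In the CD31 libraries Ighg2c was 1682 and 179 CPM for vehicle, 4.86 and 211 CPM at day 3, and 0 and 1490 CPM at day 7, and Ighg2b was 2640 and 20.1 CPM for vehicle, 279 and 202 CPM at day 3, and 17.0 and 2098 CPM at day 7. In the CD31 fraction both genes were highest in the 2 libraries that were also high in Ighg1. With doublets kept, Ighg2b was 219 CPM (CD45) and 540 CPM (CD31) in the vehicle libraries labelled Cre-positive and 1032 CPM in the day 3 CD31 library labelled Cre-negative, while the highest 2 libraries of the CD31 fraction stood at 2476 and 1993 CPM.

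Igha, the constant region of the IgA class, did not follow that split. In the CD45 libraries it stood at 1947 and 711 CPM (vehicle, Cre-negative and Cre-positive), 1679 and 1684 CPM (day 3), and 15.6 and 1129 CPM (day 7). In the CD31 libraries it stood at 1378 and 299 CPM for vehicle, 1331 and 3444 CPM at day 3, and 6.43 and 523 CPM at day 7. It lay between 711 and 1947 CPM in 5 of the 6 CD45 libraries, and the day 7 libraries labelled Cre-negative were the lowest of both fractions. That low value depended on the removal of doublets. With doublets kept, Igha stood at 842 CPM in the day 7 CD45 library labelled Cre-negative and at 2201 CPM in its CD31 counterpart, above the 1246 CPM of the day 7 CD31 library labelled Cre-positive. A single cell gave 87.1% of Igha UMIs in the vehicle CD31 library labelled Cre-positive and 86.0% in the day 7 CD31 library labelled Cre-positive.

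Ighg3 and Ighe, the constant regions of IgG3 and of the mast cell-binding class IgE, rested on very few cells. Within the CD45 fraction Ighg3 was highest at 311 CPM in the day 7 library labelled Cre-positive, but a single cell gave 98.5% of its UMIs there, and 95.4% of the 92.8 CPM in the vehicle CD45 library labelled Cre-negative. Its highest value in the CD31 fraction was 711 CPM in the vehicle library labelled Cre-negative, where the top cell held 25.6% of its UMIs. With doublets kept, Ighg3 stood at 792 CPM in the day 7 CD31 library labelled Cre-negative against 667 CPM in that vehicle library, so this order depended on the removal. Ighe stood at 60.0 and 50.3 CPM in the CD45 libraries of vehicle Cre-negative and day 7 Cre-positive and at 167 and 292 CPM in the matching CD31 libraries. The top cell held 50.0% to 65.6% of Ighe UMIs in those 4 libraries. In the day 3 CD31 library labelled Cre-positive, 1 cell gave 99.3% of the 57.8 CPM of Ighe. By contrast, the top cell held 2.42% to 16.1% of Ighg1 UMIs in the 4 libraries rich in it.

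Plasma cell-like cells carried nearly all Ighg1 transcripts where these were abundant. Their clusters had all 14 fixed plasma cell markers at least 2-fold above the other cells, and no immunoglobulin gene or Jchain was used to form or name a cluster. In the 4 libraries rich in Ighg1, 98.0% to 98.7% of its UMIs in B and plasma cells lay in plasma cell-like cells, against 0% to 53.6% in the 7 other libraries with any Ighg1 UMI. These cells numbered 143 and 6 in the CD45 libraries of vehicle Cre-negative and Cre-positive, 31 and 9 at day 3, and 3 and 153 at day 7. The CD31 libraries held 119 and 2 for vehicle, 6 and 17 at day 3, and 0 and 39 at day 7. In bulk sums over B and plasma cells, fewer plasma cells and less RNA per plasma cell cannot be told apart, so classes were also called cell by cell. A cell was given a class when it held at least 5 heavy-chain UMIs and more UMIs of that class than of all others together, with Ighm and Ighd joined as unswitched.

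IgG1 was the class of most plasma cells in 4 libraries and of none in the other 8, of which the day 7 CD31 library labelled Cre-negative held no plasma cell. It was called in 89 of 143 plasma cells (62.2%, exact interval 53.8% to 70.2%) in the vehicle CD45 library labelled Cre-negative and in 109 of 153 (71.2%, 63.4% to 78.3%) in the day 7 CD45 library labelled Cre-positive. The matching CD31 libraries had 78 of 119 (65.5%, 56.3% to 74.0%) and 25 of 39 (64.1%, 47.2% to 78.8%). The 4 intervals overlap one another. The largest of the other libraries, day 3 CD45 labelled Cre-negative, had 0 IgG1 cells of 31, which allows a share of up to 9.68% from a floor of 3 counts and 11.2% from the exact interval. The remaining libraries held too few plasma cells to bound the share tightly, for example 0 of 17 at day 3 in the CD31 library labelled Cre-positive, which allows up to 17.6% from the floor and 19.5% from the exact interval.

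Other classes were spread over more libraries. IgA was called in 14 and 4 plasma cells of the vehicle CD45 libraries (Cre-negative, then Cre-positive), in 11 and 5 at day 3, and in 0 and 9 at day 7. The CD31 libraries had 6 and 1, 2 and 11, and, at day 7 labelled Cre-positive, 2. IgA made up 64.7% (38.3% to 85.8%) of plasma cells in the day 3 CD31 library labelled Cre-positive, and 55.6% (21.2% to 86.3%) and 35.5% (19.2% to 54.6%) in the day 3 CD45 libraries labelled Cre-positive and Cre-negative. In the last of these, the interval of IgA overlapped that of unswitched cells. IgG2c was called in 18, 17 and 5 cells of the CD45 libraries of vehicle Cre-negative, day 7 Cre-positive and day 3 Cre-negative, and IgG2b in 15, 10 and 5. IgE was called in 8 plasma cells over all 12 libraries and IgG3 in 9. Unswitched plasma cells numbered 9 of 31 in the day 3 CD45 library labelled Cre-negative (29.0%, 14.2% to 48.0%) against 4 of 143 (2.80%, 0.767% to 7.01%) in the vehicle CD45 library labelled Cre-negative. Under Cre-positive the CD45 shares were 2 of 6 (33.3%, 4.33% to 77.7%) for vehicle and 3 of 9 (33.3%, 7.49% to 70.1%) at day 3.

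**Figure D2:**
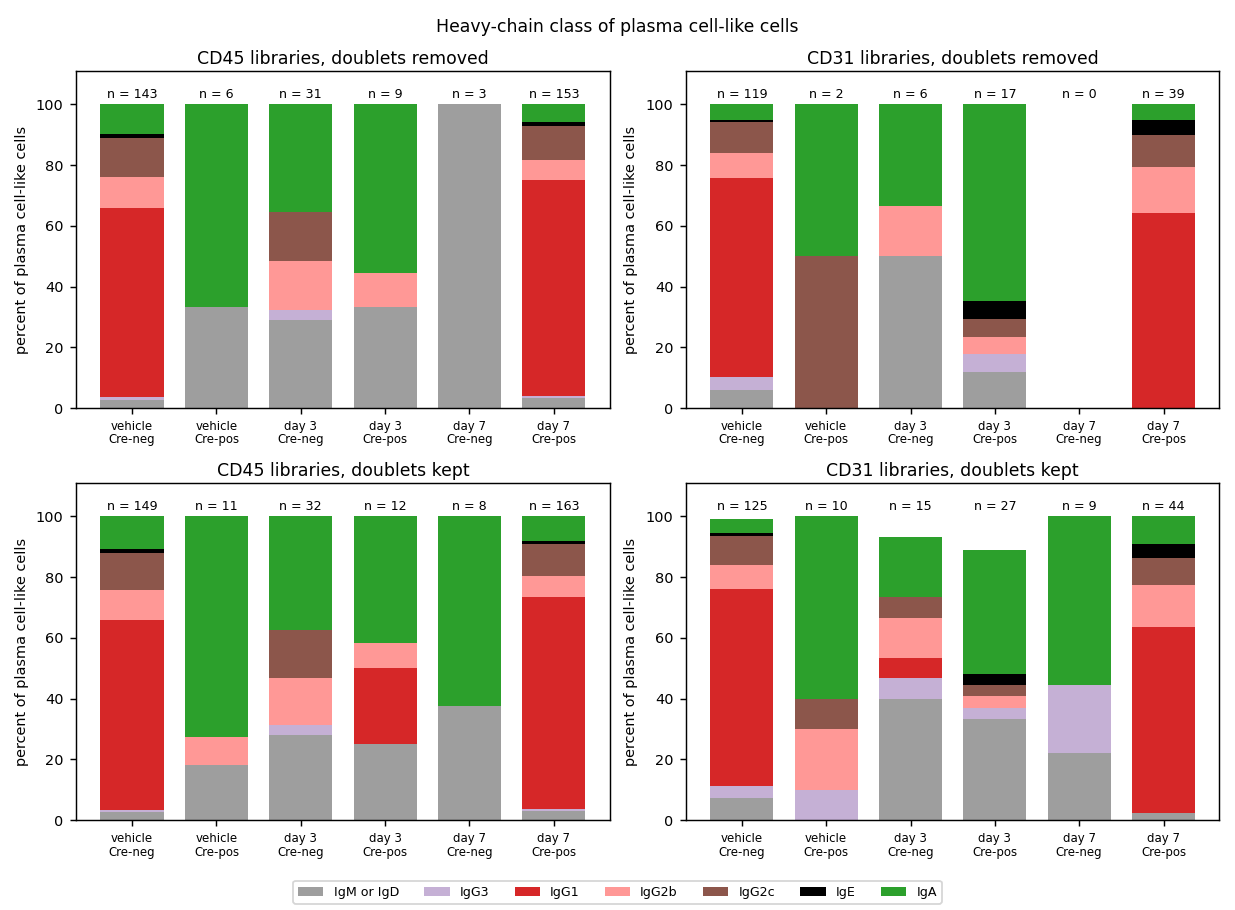
Class calls of plasma cell-like cells per library, as a percent of those cells, with doublets removed and with doublets kept for each fraction. IgG1 takes 62.2% to 71.2% of plasma cells in the vehicle Cre-negative and day 7 Cre-positive libraries with doublets removed and is called in 0 to 3 cells of each other library, and bars short of 100 hold cells without a class.

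Removing suspected doublets lowered the plasma cell counts where they were small. With doublets kept, plasma cells numbered 149 and 11 for vehicle, 32 and 12 at day 3, and 8 and 163 at day 7 in the CD45 libraries, and 125 and 10 for vehicle, 15 and 27 at day 3, and 9 and 44 at day 7 in the CD31 libraries. IgA cells then numbered 16 and 8 for vehicle, 12 and 5 at day 3, and 5 and 13 at day 7 in the CD45 libraries. In the day 7 CD45 library labelled Cre-negative, all 8 removed barcodes with at least 100 heavy-chain UMIs were of class IgA, so its near absence of Igha rests on that step. IgG1 cells with doublets kept numbered 93, 114, 81 and 27 in the 4 rich libraries, 3 at day 3 in the CD45 library labelled Cre-positive, 1 at day 3 in the CD31 library labelled Cre-negative and 0 in the other 6. The split in IgG1 was therefore present with and without the step.

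Switched cells were a small share of all B and plasma cells. Of cells with at least 5 heavy-chain UMIs in the CD45 libraries, 7.90% (6.92% to 8.96%) were switched in the vehicle library labelled Cre-negative and 0.602% (0.289% to 1.10%) in that labelled Cre-positive. The day 3 libraries had 1.49% (1.02% to 2.09%) and 0.385% (0.166% to 0.756%), and the day 7 libraries 0.0483% (0.00122% to 0.269%) and 10.3% (9.15% to 11.5%). The CD31 libraries had 11.8% and 1.13% for vehicle, 0.613% and 2.64% at day 3, and 0.125% and 8.81% at day 7. With doublets kept, the day 7 libraries labelled Cre-negative had 0.325% (CD45) and 0.942% (CD31). In each fraction, with doublets removed, the intervals of the vehicle Cre-negative and day 7 Cre-positive libraries lay above those of the other 4. With a minimum of 10 heavy-chain UMIs, the shares in the CD45 libraries were 13.8% (vehicle) and 3.44% (day 3) under Cre-negative and 15.4% at day 7 under Cre-positive. With every cell thinned to 1000 UMIs, the CD45 values were 7.22% and 1.04% for vehicle, 1.69% and 0.566% at day 3, and 0.316% and 9.54% at day 7. T cell-like cells with at least 5 heavy-chain UMIs made up 1.50% to 6.88% of T cells, and 0 to 6 such cells per library were of a switched class.

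Germinal centre B-like cells were most numerous in the libraries rich in Ighg1. The clusters given this name had 7 or 8 of the 9 germinal centre markers, and cell cycle genes were among their leading genes. They numbered 118 and 14 in the vehicle CD45 libraries, 15 and 16 at day 3, and 4 and 170 at day 7, and in the CD31 libraries 115 and 12 for vehicle, 17 and 39 at day 3, and 5 and 48 at day 7. IgG1 was called in 37.9% (28.5% to 48.0%) and 48.0% (39.8% to 56.3%) of them in the CD45 libraries of vehicle Cre-negative and day 7 Cre-positive, and in 37.9% (28.1% to 48.4%) and 34.9% (21.0% to 50.9%) in the matching CD31 libraries. The other 8 libraries held at most 1 IgG1 cell each among 3 to 32 germinal centre cells with enough heavy-chain UMIs. For all switched classes together the libraries were not separated, as 4 of 13 (30.8%, 9.09% to 61.4%) and 4 of 11 (36.4%, 10.9% to 69.2%) of these cells were switched in the vehicle Cre-positive libraries (CD45, CD31) against 16 of 43 (37.2%, 23.0% to 53.3%) in the day 7 CD31 library labelled Cre-positive. In B cells outside germinal centres, the switched share was 1.46% (1.03% to 2.01%) and 1.99% (1.47% to 2.64%) in the CD45 libraries of vehicle Cre-negative and day 7 Cre-positive and 0.0485% to 0.474% in the other 4.

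**Figure D3:**
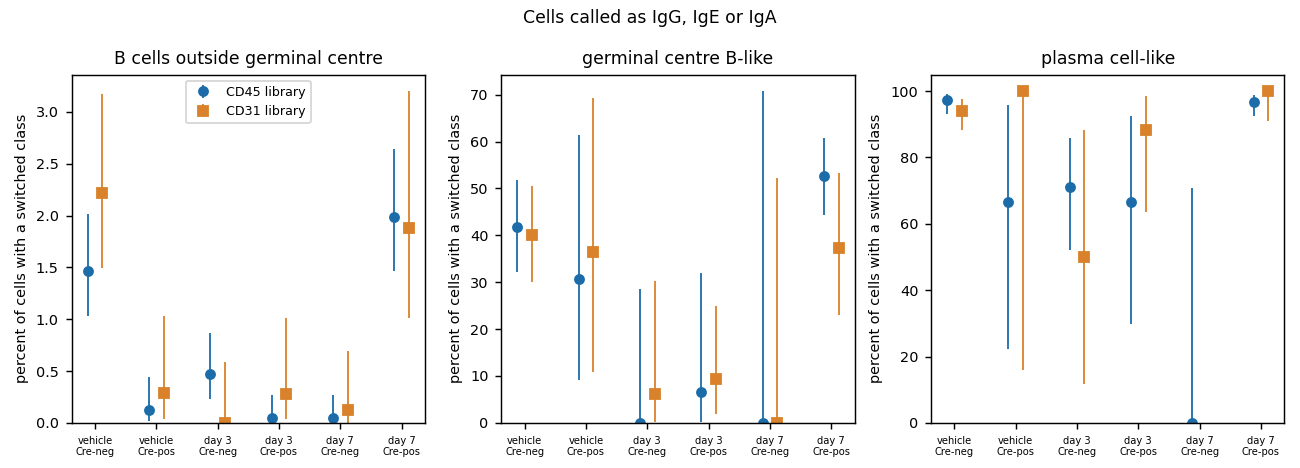
Percent of cells of a switched class among cells with at least 5 heavy-chain UMIs, per library (circles CD45, squares CD31) with exact binomial intervals, for B cells outside germinal centres, germinal centre B-like cells and plasma cell-like cells. The vehicle Cre-negative and day 7 Cre-positive libraries are the highest of the CD45 fraction in the left and middle panels, at 1.46% and 1.99% outside and 41.7% and 52.7% within germinal centres.

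Jchain, the joining chain gene, was carried by every plasma cell of every class. Over B and plasma cells it stood at 4308 and 689 CPM in the vehicle CD45 libraries (Cre-negative, then Cre-positive), 1796 and 833 CPM at day 3, and 330 and 4006 CPM at day 7. In the CD31 libraries it stood at 5460 and 177 CPM for vehicle, 974 and 2229 CPM at day 3, and 4.82 and 3421 CPM at day 7. With doublets kept, Jchain at day 7 under Cre-negative was 947 CPM (CD45) and 1919 CPM (CD31). Within plasma cells the order did not hold, with 22022 to 65001 CPM over the 6 CD45 libraries and the lowest value in the day 7 library labelled Cre-positive. The order of libraries in the sums was therefore not the order within plasma cells.

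Jchain differed by class within plasma cells. The median share of a cell's UMIs that was Jchain was 6.41% in 14 IgA cells against 2.09% in 89 IgG1 cells of the vehicle CD45 library labelled Cre-negative, and 7.26% in 9 IgA cells against 2.08% in 109 IgG1 cells of the day 7 CD45 library labelled Cre-positive. The matching CD31 libraries had 6.86% in 6 IgA cells against 1.77% in 78 IgG1 cells, and 4.45% in 2 IgA cells against 2.10% in 25 IgG1 cells. The IgA median was the higher in all 4 libraries that held both classes. Unswitched plasma cells, almost all of whose heavy-chain UMIs were Ighm, had medians of 1.84% and 1.86% in those 2 CD45 libraries, from 4 and 5 cells, and 1.82% in 7 cells of the vehicle CD31 library labelled Cre-negative. Elsewhere the unswitched cells were not all low, with a median of 7.02% in the 3 plasma cells of the day 7 CD45 library labelled Cre-negative, and of 3.49% in 2 unswitched against 3.58% in 4 IgA cells of the vehicle CD45 library labelled Cre-positive. IgA cells also devoted more of their UMIs to the heavy chain, with medians of 13.4%, 12.8%, 9.39% and 15.5% in the 4 libraries rich in Ighg1 against 7.00%, 7.78%, 6.07% and 6.88% in IgG1 cells. IgE cells had the lowest heavy-chain medians of the switched classes in those libraries, 0.938% to 3.01%, from 1 or 2 cells a library. Cells of a library are not replicates, so no test was made between classes.

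**Figure D4:**
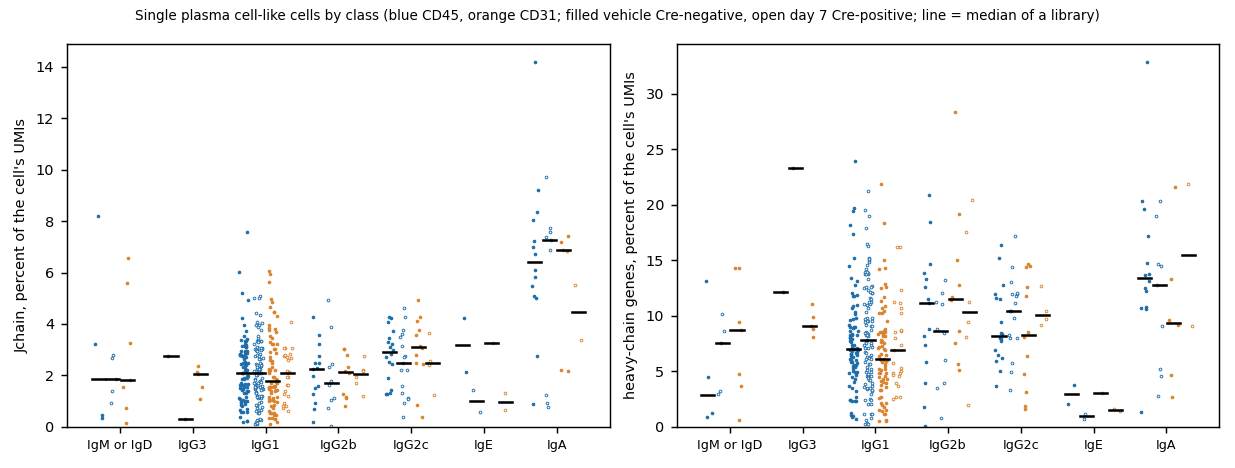
Jchain as a percent of each plasma cell's UMIs, by heavy-chain class (left), and all heavy-chain genes as a percent of its UMIs (right), in the vehicle Cre-negative and day 7 Cre-positive libraries, with 1 point per cell and a line at each library's median. In these 4 libraries, IgA cells have Jchain medians of 4.45% to 7.26% and IgG1 cells of 1.77% to 2.10%.

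Jchain was also present in germinal centre B-like cells. A Jchain UMI was found in 86.4% of these cells in the vehicle CD45 library labelled Cre-negative, 85.7% in that labelled Cre-positive, 3 of 4 cells and 90.0% at day 7, but 0% and 12.5% at day 3. The CD31 libraries had 74.8% and 50.0% for vehicle, 1 of 5 cells and 77.1% at day 7, and 0% and 10.3% at day 3. Before thinning, the day 3 libraries were the lowest of both fractions. The clusters were named over pooled libraries, and whether the name holds for the day 3 cells was not tested. Their ratio of Ighm to Ighd UMIs was 5.57 to 9.20 at day 3, against 9.69 to 32.0 in the other libraries. The numbers of cells behind the low values were 15 and 16 in the CD45 and 17 and 39 in the CD31 libraries at day 3, and 4 and 5 at day 7 labelled Cre-negative, so several shares are loose. As a background, a Jchain UMI was found in 0.265% to 5.02% of T cell-like cells, at median depths of 4155 to 6814 UMIs against 5519 to 26379.5 UMIs in germinal centre cells. Thinned to 2000 UMIs a cell, with 0 to 5 germinal centre cells a library left out, the Jchain shares of the vehicle Cre-negative and day 7 Cre-positive libraries were 65.8% and 70.9% (CD45) and 49.1% and 43.8% (CD31), against 0.0929% to 2.26% of T cells. In the vehicle Cre-positive libraries the thinned shares were 42.9% (CD45) and 33.3% (CD31), and at day 7 under Cre-negative they were 2 of 3 cells and 0 of 5 cells. The thinned shares at day 3 were 0% and 0% (CD45) and 0% and 2.86% (CD31), which is not above the background of T cells at these cell numbers.

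Free RNA was compared with the kept cells of each library. Ighg1 in free RNA of the CD45 libraries stood at 3184 and 0 CPM (vehicle), 0.608 and 96.8 CPM (day 3), and 169 and 4463 CPM (day 7), Cre-negative before Cre-positive. In the CD31 libraries it stood at 1958 and 0 CPM for vehicle, 11.8 and 1.34 CPM at day 3, and 0.297 and 1473 CPM at day 7. The 4 libraries rich in IgG1 plasma cells had the 4 highest values. In the day 7 CD45 library labelled Cre-negative and the day 3 CD45 library labelled Cre-positive, Ighg1 was more abundant in free RNA (169 and 96.8 CPM) than in kept B and plasma cells (5.05 and 7.05 CPM). Ighg2b in the CD31 libraries was also higher in free RNA than in kept cells for vehicle Cre-positive (204 against 20.1 CPM) and day 7 Cre-negative (267 against 17.0 CPM), and lower at day 3 Cre-positive (8.48 against 202 CPM). Ighg3 was higher in free RNA in the day 7 CD31 library labelled Cre-negative (88.5 against 3.86 CPM) and the day 3 CD45 library labelled Cre-positive (117 against 8.52 CPM). With doublets kept, Ighg3 in that CD31 library stood at 792 CPM in cells, above free RNA. Cells were then also above free RNA for Ighg1 at day 3 CD45 Cre-positive (251 CPM) and Ighg2b in vehicle CD31 Cre-positive (540 CPM). Free RNA stayed above cells for Ighg1 at day 7 CD45 Cre-negative (5.97 CPM in cells) and Ighg2b at day 7 CD31 Cre-negative (32.0 CPM). It also stayed above cells for Ighg3 at day 3 CD45 Cre-positive (8.63 CPM).

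Igha in free RNA stood at 879 and 340 CPM for vehicle, 369 and 621 CPM at day 3, and 751 and 745 CPM at day 7 in the CD45 libraries. The day 7 CD45 library labelled Cre-negative, with 15.6 CPM of Igha in kept B and plasma cells, was among the highest in free RNA. With doublets kept, its B and plasma cells stood at 842 CPM of Igha, above the 751 CPM of its free RNA. In the CD31 libraries Igha stood at 116 and 632 CPM for vehicle, 222 and 334 CPM at day 3, and 73.1 and 648 CPM at day 7. Jchain in free RNA was 348 to 1653 CPM in the CD45 and 143 to 825 CPM in the CD31 libraries. From T cell marker UMIs in B cells, free RNA was estimated to make up 0.778% to 4.77% of B cell UMIs. As a background, Ighg1 in T cell-like cells was 26.8 and 60.9 CPM in the vehicle Cre-negative and day 7 Cre-positive CD45 libraries and 0 to 2.63 CPM in the other 4. Ighg1 in B cells outside germinal centres was 60.0 and 94.7 CPM in those 2 libraries and 0.132 to 5.09 CPM in the other 4, so low Ighg1 sums outside germinal centres are not read here as expression.

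**Figure D5:**
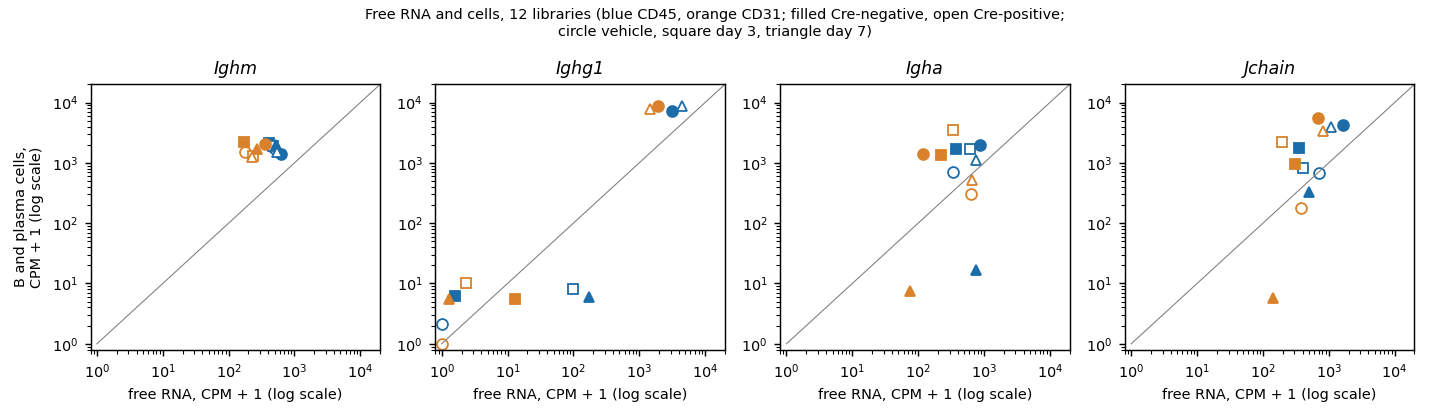
Ighm, Ighg1, Igha and Jchain in free RNA (horizontal axis) and in summed B and plasma cells (vertical axis), both as CPM + 1 on log axes, with 1 point per library and a line of equal levels. Ighg1 lies at 7178 to 8905 CPM in cells and 1473 to 4463 CPM in free RNA in the same 4 libraries. The day 7 Cre-negative CD45 library has Igha at 751 CPM in free RNA against 15.6 CPM in cells with doublets removed, and 842 CPM in cells with doublets kept (not drawn).

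The additive model over all genes, which tests a treatment over both labels or a label over all treatments, called none of the 9 members. All 9 passed its low-count filter in both fractions. By edgeR's quasi-likelihood test with Benjamini-Hochberg adjustment at 0.05, 0 of 12590 genes were called in the CD45 and 0 of 10946 in the CD31 libraries for each of 3 contrasts (day 3 against vehicle, day 7 against vehicle, Cre-positive against Cre-negative), so percent called was 0. At an unadjusted p under 0.05 there were 342, 94 and 402 genes in the CD45 and 142, 38 and 34 in the CD31 libraries, in that order of contrasts. DESeq2 called 21, 2 and 11 genes in the CD45 and 0, 0 and 1 in the CD31 libraries, and no member in any of them. Among the tests of members, 1 had an unadjusted p under 0.05: Ighm was lower in the CD31 libraries labelled Cre-positive by a log2 change of -0.60 (SE 0.20, edgeR adjusted p = 1.00). Ighm was lower in the Cre-positive library at each of the 3 CD31 pairs, at 2083 against 1508 CPM, 2245 against 1293 CPM and 1726 against 1257 CPM. These sums include plasma cells, which held 50.6% of Ighm UMIs in the vehicle CD31 library labelled Cre-negative and 0% in that labelled Cre-positive. In B cells outside germinal centres the vehicle CD31 pair ran the other way, at 1459 CPM (Cre-negative) against 1564 CPM (Cre-positive) of Ighm, as did the vehicle CD45 pair of the sums, at 1405 against 1777 CPM, and the day 7 CD31 pair with doublets kept, at 1596 against 1798 CPM.

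The standard errors of this model were large for the switched classes. Treatment changes that differ between the labels enter its error term, so the lack of a call does not bear on such changes. For day 7 against vehicle in the CD45 libraries, the log2 change was -0.073 (SE 5.83) for Ighg1, whose direction was opposite in the pairs of both labels, against 0.14 (SE 0.19) for Ighm and 0.13 (SE 0.26) for Ighd, all with an edgeR adjusted p of 1.00. Leaving out 1 library changed these calls, but a fit without a day 7 library has 1 library in that arm, which is assumed to vary like the other groups. Without the day 7 CD45 library labelled Cre-negative, Ighg3, Ighg2b, Ighg2c, Ighe and Jchain were called higher at day 7, beside 0.838% of all genes tested. Without the day 7 CD45 library labelled Cre-positive, the same 5 and Igha were called lower at day 7, beside 1.27% of all genes, the direction being that of the library kept. In these fits Ighg3, Ighg2b, Ighg2c, Ighe and Jchain were also called lower in the Cre-positive libraries, beside 1.05% and 0.937% of all genes. Both fits take this label change from the same vehicle and day 3 libraries, as the day 7 library kept only sets the day 7 level. They are therefore 1 result given again, with log2 changes of -8.6085 and -8.595 for Ighg2c. The day 7 CD45 pair ran the other way for the same 5 genes, with Ighg2c at 0.399 CPM (Cre-negative) against 1783 CPM (Cre-positive). The CD31 fits without either vehicle library called Ighe higher under Cre-positive, as 1 gene of 11166 (0.00896%) and 1 of 11776 (0.00849%). At day 3 Ighe was called lower without the day 7 CD45 library labelled Cre-negative (0.501% of all genes) and without the vehicle CD31 library labelled Cre-positive (0.034%). Without the day 7 CD31 library labelled Cre-positive, 7 members were called lower at day 7, beside 1.59% of all genes. The members at day 7 are thus described by the levels of each library and not by a common change.

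The genes that work with the members were taken from fixed lists, and none of their genes was called in either fraction. In the light chain and B cell receptor list (16 of 16 tested), Igkc, the kappa light chain constant region, stood at 42897 and 9252 CPM (vehicle), 23487 and 12884 CPM (day 3), and 8951 and 43021 CPM (day 7) over B and plasma cells of the CD45 libraries. Iglc1, a lambda constant region, stood at 9515 and 540 CPM for vehicle, 1105 and 400 CPM at day 3, and 1042 and 6569 CPM at day 7. Cd79a, a signalling chain of the receptor, ranged from 1847 to 2879 CPM. Both light chain genes were highest in the 2 CD45 libraries that were rich in Ighg1, and the order of the other 4 libraries differed between the genes.

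In the plasma cell programme list (20 of 20 tested), Mzb1, a chaperone for antibody assembly, stood at 1494 and 392 CPM for vehicle, 605 and 340 CPM at day 3, and 297 and 1523 CPM at day 7 in the CD45 libraries. Hsp90b1, another chaperone of the endoplasmic reticulum, ranged from 295 to 1406 CPM and Ssr4, a subunit of the translocon-associated complex, from 186 to 579 CPM, both highest in the vehicle library labelled Cre-negative. The median log2 change of the list at day 3 against vehicle was -0.51 in the CD45 and -0.71 in the CD31 libraries, against -0.01 over all genes in each, and at day 7 it was 0.03 in the CD45 and -0.67 in the CD31 libraries. In the germinal centre list (12 of 12 tested), the day 3 medians were -2.08 and -2.26. Its gene Cd38, a surface enzyme, stood at 136 and 230 CPM for vehicle, 198 and 224 CPM at day 3, and 172 and 144 CPM at day 7 in the CD45 libraries. Basp1 stood at 74.0 and 31.1 CPM for vehicle, 15.3 and 25.9 CPM at day 3, and 8.51 and 109 CPM at day 7, while Bcl6, the master regulator of germinal centre B cells, ranged from 64.2 to 128 CPM and was highest in the day 3 libraries.

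The genes that carry out or direct switching were flat. In the class switch machinery list (20 of 20 tested), Rif1 and Xrcc4, which act in the repair of the DNA breaks of switching, ranged from 54.8 to 61.7 CPM and from 51.7 to 73.4 CPM over the CD45 libraries, and Prkdc, the DNA-dependent protein kinase, from 39.0 to 57.8 CPM. In the list of switch-directing receptors and factors (18 of 18 tested), Tgfbr2, a receptor for the cytokine that favours IgA, ranged from 176 to 291 CPM, Nfkb1 from 165 to 282 CPM and Il2rg, the shared cytokine receptor chain, from 136 to 241 CPM. The day 3 and day 7 medians of both lists lay between -0.09 and 0.07 in both fractions. In the list for IgM and IgD processing (5 of 5 tested in the CD45 libraries), Zfp318, which is needed for IgD expression, ranged from 112 to 161 CPM, Ell2, an elongation factor that favours the secreted form, from 62.9 to 128 CPM, and Elavl1 from 75.7 to 93.2 CPM.

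The genes whose pattern was most like that of each member were ranked by Pearson correlation of log2(CPM + 1) over 33 combinations of library and cluster among B and plasma cells of the CD45 libraries, for 5617 genes. These points share libraries and depth, and only 2 of them are plasma cells, so the values are descriptions. Zfp318 (0.98) and Cd55 (0.98) were among the genes closest to Ighd, and Ighm was closest to Emp3 (0.80), Anxa5 (0.74) and Mgat1 (0.71). Jchain was closest to Mzb1 (0.95), Srp9 (0.93) and Prdx4 (0.93), and Igha to Ssr4 (0.95), Sec11c (0.95) and Spcs2 (0.95). Ighg1 was closest to Slpi (0.89), Mzb1 (0.84) and Prdx4 (0.83), Ighg2c to Ssr4 (0.93), Mzb1 (0.93) and Edem2 (0.92), and Ighg2b to Ctsb (0.91), Lgals1 (0.91) and Sec61b (0.90). Ighe was closest to Mzb1 (0.96), Ssr2 (0.96) and Lman1 (0.96), and Ighg3 to Ift20 (0.89), Ssr3 (0.88) and Spcs1 (0.88).

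The IgG1 plasma cells of the high libraries were found among cells with Y-linked UMIs and among cells with Xist UMIs. In the vehicle CD45 library labelled Cre-negative, IgG1 was called in 45 of 63 plasma cells with Y-linked UMIs alone and in 20 of 39 with Xist UMIs alone. In the day 7 CD45 library labelled Cre-positive the counts were 21 of 32 and 40 of 59. The matching CD31 libraries had 49 of 66 and 20 of 36 for vehicle Cre-negative, and 7 of 10 and 9 of 13 for day 7 Cre-positive. IgG1 was the class of over 50% of the plasma cells in each of these 8 sets.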

How the data were processed

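The files deposited by the authors are tables of whole-number UMI counts that list all barcodes, so cells were called here. Per the file headers they were made with Cell Ranger version 4, while the submitters' processing notes name version 7.0.1 and build mm10. Kept barcodes had at least 1000 UMIs, 500 genes and at most 10% mitochondrial UMIs. The highest Scrublet scores (scanpy 1.11.5) were removed as doublets, at 0.8% for each 1000 barcodes, because the automatic threshold failed in some libraries. Each fraction was clustered (2000 variable genes, 30 components, 20 neighbours, Leiden resolution 1) without 397 genes, the immunoglobulin genes and Jchain, and without the added feature mRFP. Clusters were named from fixed marker lists, and B and plasma clusters were summed per library.

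Sums were fitted in edgeR 4.0.16 (R 4.3.3) with TMM scaling, its expression filter by treatment and the model genotype label plus treatment, which leaves 2 residual degrees of freedom, and DESeq2 1.42.0 was run beside it. The fits were also run on simulated counts, with the same spread for every gene and a day 7 change equal under both labels. Most members changed in opposite directions under the labels, so that run does not bear on them. Shares have exact Clopper-Pearson and levels exact Poisson intervals at 95%, which cover counting error only. With 1 library a group, p-values measure only the spread between these libraries. That spread is the part of the treatment changes that differs between the labels, as no group holds a second library. All 9 members were named, with the 3 most abundant genes of each list and the 3 genes most alike, of which 1 is not reported here. The members and lists were chosen with earlier results of these data known. Coordinates and sequences are from GENCODE M21 (GRCm38), and protein sequences were not used here.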

Additional observations from a re-analysis of the deposited data

Results flagged for a closer look

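The change from vehicle to day 7 went in opposite directions under the 2 genotype labels for 7 of the 9 members in both fractions, counting a direction where the Poisson intervals of the 2 levels do not overlap. Of 13581 genes with at least 10 UMIs in each fraction, 12.2% met the same rule. Poisson intervals treat each UMI as independent, so they are too narrow where a few cells hold many of the UMIs. A direction under this rule can therefore rest on few cells. Ighm and Ighg3 met this in the CD45 libraries but not in the CD31 libraries. Each label has 1 library per treatment and fraction, so this difference between labels was not tested. The fractions may share mice, so the CD31 directions are not independent of the CD45 directions. Values are log2 ratios of day 7 over vehicle CPM in B and plasma cells. Ighg1 had -10.47 (CD45) and -10.92 (CD31) in the libraries labelled Cre-negative and 12.94 (CD45) in those labelled Cre-positive, the last against 9 vehicle UMIs. The CD31 library of vehicle Cre-positive held no Ighg1 UMI. Ighg2b had -9.667 and -7.275 under Cre-negative and 6.42 and 6.707 under Cre-positive, CD45 before CD31, and with doublets kept the latter were 2.38 and 1.88. Ighg2c had 10.79 and 3.06 under Cre-positive, and its Cre-negative libraries went from 1552 to 0.399 CPM (CD45) and from 1682 to 0 CPM (CD31), with too few UMIs at day 7 for a ratio. Ighe, which rests on few cells, went from 60.0 and 167 CPM to 0 under Cre-negative and from 0.126 and 0.295 CPM to 50.3 and 292 CPM under Cre-positive. Jchain had -3.707 and -10.14 under Cre-negative and 2.54 and 4.269 under Cre-positive. With doublets kept these were -2.09 and -1.42, and 1.98 and 1.10. Igha had -6.968 and -7.743 under Cre-negative and 0.6667 and 0.8085 under Cre-positive, and these rest on the removal of doublets and, in the CD31 libraries labelled Cre-positive, on a single cell that gave 87.1% (vehicle) and 86.0% (day 7) of the UMIs. With doublets kept, the Igha ratios were -1.12 and 0.77 under Cre-negative and 0.29 and -1.09 under Cre-positive, so the CD31 directions turned round. Ighd went the other way in these sums, with 0.6685 and 1.067 under Cre-negative and -0.4694 and -0.5096 under Cre-positive. In B cells outside germinal centres alone, its ratios were smaller, 0.24 and 0.30 under Cre-negative and 0.011 and -0.054 under Cre-positive.

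The libraries that were high in switched classes also had the most germinal centre B-like and plasma cell-like cells, and the vehicle libraries labelled Cre-positive held almost no cell with Xist UMIs. The part of these in the differences was not tested, and mice, cage and library cannot be told apart from the groups.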

How the results depend on the processing

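No paired analysis was possible because each group holds 1 library with replicate number 1. Plasma cell fits were not run, since several libraries held under 10 plasma cells. Thinning to 1000 UMIs, cells with Y-linked UMIs alone, and B cells without germinal centre-like and plasma cell-like cells were added after seeing the data, as were Jchain shares thinned to 2000 UMIs and day 7 ratios with doublets kept. Genes called numbered 21, 2 and 11 with DESeq2 in the CD45 libraries (day 3, day 7, Cre-positive) and 1 in the CD31 libraries (Cre-positive), and 3 (day 3) and 1 (Cre-positive) in CD45 B cells without germinal centre-like and plasma cell-like cells. No member was among them. Leaving out 1 library, members called ranged from 0 to 1, 0 to 6 and 0 to 5 in the CD45 and from 0 to 1, 0 to 7 and 0 to 1 in the CD31 libraries, and genes called from 0 to 129, 0 to 180 and 0 to 253, and from 0 to 22, 0 to 177 and 0 to 12. The day 7 log2 change in the CD45 libraries then ranged from -9.61 to 12.11 for Ighg1, from -0.081 to 0.37 for Ighm and from -0.24 to 0.48 for Ighd, and the Cre-positive change of Ighm in the CD31 libraries from -0.73 to -0.52. For Ighg1 it also turned to 0.30 with free RNA subtracted, 0.13 in B cells alone, 0.23 with treatment alone and 0.79 in B cells without germinal centre-like and plasma cell-like cells. With at least 10 heavy-chain UMIs, switched shares were 13.8%, 3.44% and 15.4% (CD45, vehicle Cre-negative, day 3 Cre-negative, day 7 Cre-positive) and 17.3%, 6.20%, 0% and 12.2% (CD31, vehicle Cre-negative, day 3 Cre-positive, day 7 Cre-negative, day 7 Cre-positive). At day 7 Cre-negative they were 0.325% (CD45) and 0.942% (CD31) with doublets kept, and in the CD45 library 0% with at least 2000 UMIs a cell and 0.316% thinned. With doublets kept, plasma cells numbered 11 and 8 (CD45, vehicle Cre-positive, day 7 Cre-negative) and 10, 15, 27 and 9 (CD31, vehicle Cre-positive, day 3 Cre-negative, day 3 Cre-positive, day 7 Cre-negative). IgA cells then numbered 8 and 5 (CD45, vehicle Cre-positive, day 7 Cre-negative) and 6, 5 and 4 (CD31, vehicle Cre-positive, day 7 Cre-negative, day 7 Cre-positive), and IgG1 cells 3 (CD45, day 3 Cre-positive) and 1 (CD31, day 3 Cre-negative). Switched heavy chains in free RNA of at most 50 UMIs were 623 and 761 CPM (CD45, day 3) and 2468 and 310.0 CPM (CD31, vehicle Cre-negative, day 3 Cre-positive), and of at most 200 UMIs 2554 and 2486 CPM (CD31, vehicle Cre-negative, day 7 Cre-positive). With doublets kept, the log2 ratio of day 7 over vehicle turned in the CD31 libraries for Ighm (Cre-positive, 0.37), Ighg3 (Cre-negative, 0.25, and Cre-positive, -7.44) and Igha (Cre-negative, 0.77, and Cre-positive, -1.09), and kept its sign in the other 24 ratios. The causes of these shifts were not tested. Of the other comparisons without a library left out, 84 class use values and 18 free RNA values stayed within the spread allowed. The other 130 comparisons were counts of genes or members called, which were 0 in the main fits and stayed at 0. As there was no call to lose, these counts cannot show whether a call is stable.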
